A study of Mus musculus with 46 samples.

Results

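The constructs described here carry a promoter fragment as the first insert and a candidate cis-regulatory element (cCRE) as the second, so that the cCRE lies next to the reporter. They are called PE below, and the reverse order, with the promoter next to the reporter, EP. All come from the Klf2 library of a massively parallel reporter assay, which was built from fragments of the Klf2 locus on mouse chromosome 8. Members were the PE constructs of that library with an activity above 0 in each of 3 biological replicates, which left 3987 of 4067 constructs. The whole table of the assay with inserts upstream of the reporter holds 89293 constructs, 19789 of them from the Klf2 library. The members join 23 promoters to 84 cCREs in 1422 pairs of fragments, 73.6% of the possible 1932, and in up to 4 strand combinations of 972 to 1024 constructs each.

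The study asked which enhancers and promoters work together when taken out of their genomic place. The host was E14TG2a, an established line of mouse embryonic stem cells, grown in medium with leukaemia inhibitory factor and a pair of kinase inhibitors (2i+LIF), which holds the cells in a naive pluripotent state. All constructs compared here were measured in the same cells: the Klf2, Nanog and negative control libraries were brought in together by nucleofection, and RNA was taken 24 h later. There is therefore 1 group with 3 biological replicates, no treatment and no change of genotype, and the reporters sat on transient plasmids and not in chromatin at the locus. The activity of a construct is the authors' ratio of its barcodes in reporter RNA to those in plasmid DNA. The number of barcodes or reads behind each value is unknown here. The table also lists fragments alone upstream of the reporter, which gives the background of a pair: the promoter alone for all 3987 members, and the cCRE alone for 3943, of which 3930 were above 0 in all replicates.

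A promoter is the stretch around a transcription start site at which RNA polymerase II is assembled. An enhancer raises transcription from a promoter and is classically described as working in either orientation and at a distance. In such a plasmid the order of inserts decides which fragment adjoins the reporter and which start site lies nearer to it. Klf2 encodes a zinc finger transcription factor of the naive pluripotency network, and its neighbours at the locus range from genes used in most cells, such as Med26 (a subunit of the Mediator complex) and Rab8a (a small GTPase of vesicle transport), to the olfactory receptor gene Olfr374.

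The sequences below are the 250 bases upstream of annotated start sites (RefSeq, GRCm38.p6, which shares coordinates with mm10) that lie inside fragments on which the results turn, each read in the direction of the gene. Rab8a, Zfp961 and Med26 stand for promoters whose pairs lost most activity in PE against EP. Olfr374 and Cib3 stand for promoters whose pairs lost none against EP on average, and Klf2 is the gene of the locus. Zfp617 marks the start inside cCRE E007, the cCRE with the highest mean PE level over matched pairs. Capitals mark matches on either strand to TATAAA (a form of the TATA box), to CCAAT (the site of the factor NF-Y), to GGGCGG (the GC box) and to CCGGAA (the core of ETS factor sites). Only these exact strings were searched. Variants such as TATAAG, which the Klf2 window holds, are not marked or counted. In E007 an ETS core overlaps a GC box.
Klf2 (P016, chr8:72318812-72319061, plus strand): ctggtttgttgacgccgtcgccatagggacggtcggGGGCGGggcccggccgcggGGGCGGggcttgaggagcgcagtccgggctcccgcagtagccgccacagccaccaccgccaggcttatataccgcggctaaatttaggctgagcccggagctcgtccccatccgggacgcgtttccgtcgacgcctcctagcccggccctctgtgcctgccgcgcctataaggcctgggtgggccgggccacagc
Med26 (P021, chr8:72548311-72548560, minus strand): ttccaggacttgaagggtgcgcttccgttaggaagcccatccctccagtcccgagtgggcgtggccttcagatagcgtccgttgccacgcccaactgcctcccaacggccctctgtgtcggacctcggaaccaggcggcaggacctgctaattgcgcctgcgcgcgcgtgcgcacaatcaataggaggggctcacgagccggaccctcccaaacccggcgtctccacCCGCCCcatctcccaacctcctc
Zfp961 (P003, chr8:71950816-71951065, plus strand): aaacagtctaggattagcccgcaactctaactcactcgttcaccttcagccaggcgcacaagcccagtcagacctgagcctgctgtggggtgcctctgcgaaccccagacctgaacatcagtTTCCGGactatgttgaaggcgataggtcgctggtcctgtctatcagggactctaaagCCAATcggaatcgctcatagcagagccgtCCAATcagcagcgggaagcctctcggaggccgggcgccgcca
Rab8a (P009, chr8:72160950-72161199, plus strand): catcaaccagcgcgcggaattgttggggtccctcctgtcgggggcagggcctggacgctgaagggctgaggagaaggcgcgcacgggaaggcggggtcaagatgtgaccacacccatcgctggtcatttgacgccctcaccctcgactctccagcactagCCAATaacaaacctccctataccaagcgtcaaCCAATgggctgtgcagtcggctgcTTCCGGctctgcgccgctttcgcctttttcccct
Olfr374 (P007, chr8:72106790-72107039, plus strand): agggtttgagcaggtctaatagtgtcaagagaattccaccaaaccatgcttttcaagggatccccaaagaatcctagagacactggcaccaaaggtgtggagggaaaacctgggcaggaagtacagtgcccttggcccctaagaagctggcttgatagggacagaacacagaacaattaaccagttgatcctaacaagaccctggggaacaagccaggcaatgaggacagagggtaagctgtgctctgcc
Cib3 (P011, chr8:72212838-72213087, minus strand): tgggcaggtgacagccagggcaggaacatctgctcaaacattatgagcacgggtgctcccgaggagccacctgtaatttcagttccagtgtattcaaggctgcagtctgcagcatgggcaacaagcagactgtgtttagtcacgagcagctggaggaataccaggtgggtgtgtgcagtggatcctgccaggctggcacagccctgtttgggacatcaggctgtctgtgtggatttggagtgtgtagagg
Zfp617 (E007, chr8:71922575-71922824, plus strand): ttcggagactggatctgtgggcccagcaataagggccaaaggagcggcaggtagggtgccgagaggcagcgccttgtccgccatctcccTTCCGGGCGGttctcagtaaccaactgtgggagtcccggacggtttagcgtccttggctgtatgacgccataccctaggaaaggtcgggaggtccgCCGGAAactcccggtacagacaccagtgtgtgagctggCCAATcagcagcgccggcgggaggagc

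A window of this table fell in 18 of the promoter fragments and in 3 cCREs. Among 32851 windows of 250 bases in the whole table, 12.4% hold the exact string TATAAA, 33.8% the NF-Y site, 32.7% the GC box and 12.03% the ETS core, on either strand. Promoter fragments were split by their own activity, those with at least 1 strand at 1 or above alone and the others. The 11 windows of the 9 active promoters with a window held a median of 7.20 CpG dinucleotides per 100 bases (lowest 3.20, highest 11.6). The 8 windows of weak promoters held 2.00 (0 to 4.40), and all windows of the table had a median of 2.40. The NF-Y site occurred in 6 of the 11 active and 4 of the 8 weak windows, the GC box in 6 and 3, and the ETS core in 3 and 1. The exact string TATAAA occurred in 0 and 1, which does not count other forms of the TATA box. Klf2 had the most CpG, 29 in 250 bases, and Olfr374 had 0. These are descriptions of letters in the windows and not of bound factors. Windows of neighbouring genes overlap at P017 and at P018. A GC box at P017 and an NF-Y site at P018 are therefore each counted in both windows.

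Replicates ranked the 3987 members alike, with Spearman's rho of 0.88 to 0.90 and Pearson's r of log2 activity of 0.90 to 0.91 across constructs, which share fragments. They differed in the lowest values. A cCRE alone had a median of 0.122 in replicate 1, 0.0632 in replicate 2 and 0.248 in replicate 3 over matched pairs, so the floor of the assay was highest in replicate 3. The lowest members read 0.00585, 0.00231 and 0.0450 in replicates 1, 2 and 3. The 80 constructs left out, 1.97%, were at 0 in replicate 1 (22 constructs) or replicate 2 (65 constructs), none in replicate 3, and their other values reached 0.331, 0.0880 and 0.627.

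Placing the promoter first lowered activity in about as many pairs as it left without a call. Of the members, 2575 (64.6%) had the same 2 fragments on the same strands in the reverse order, over 22 promoters and 75 cCREs. The median PE activity was 0.263, 0.212 and 0.405 in replicates 1, 2 and 3, the median EP activity 0.725, 0.710 and 0.809, and the median of the promoters alone 1.12, 1.03 and 1.15. PE lay below EP in the median of every replicate, by a log2 difference of −1.17, −1.30 and −0.83. The median over pairs was −1.03, or 2.04-fold lower, and 79.4% of the pairs lay below 0.

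**Figure D1:**
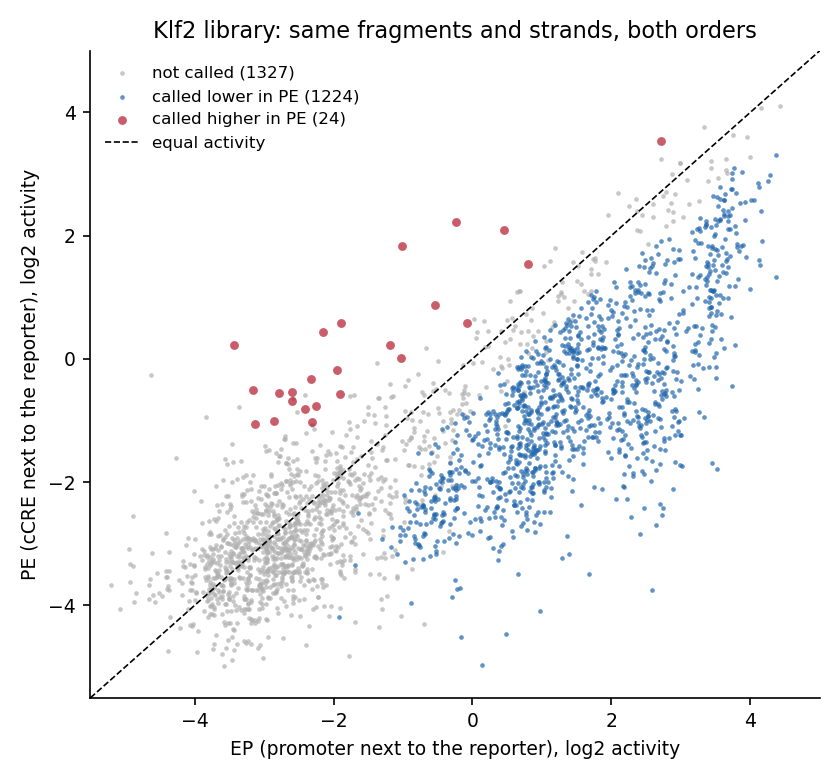
Each point is one of 2575 pairs of fragments, with the mean log2 activity of 3 replicates in the EP order (x axis) and the PE order (y axis); colours give the call by limma at an adjusted p of 0.05. The cloud follows the line of equal activity at low levels and falls below it at higher EP levels, where 1224 pairs were called lower, while 24 pairs were called higher.

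By limma on log2 activity, with Benjamini-Hochberg adjustment over the 3222 pairs of the Klf2 and Nanog libraries and a threshold of 0.05, 1224 Klf2 pairs (47.5%) were called lower in PE and 24 (0.932%) higher. Over the whole fit 39% were called lower and 3.23% higher, and the Klf2 pairs make up most of that fit. All 3 PE values lay below all 3 EP values in 1338 Klf2 pairs (52.0%) and above them in 65 (2.52%). With 3 values against 3 some pairs separate by ordering alone, so the 65 are not a set of gains. The share over the whole fit was not counted. With the replicate block, 1314 pairs were called lower and 59 higher. When PE was matched instead to the EP construct with both strands turned, as if the whole insert were inverted, 1259 of 3052 pairs were called lower and 170 higher. The higher calls also rose to 52 with only pairs that had a side of at least 0.25 and to 51 with a variance prior that follows activity. Without replicate 1, limma called 0 pairs, with 1050 at an unadjusted p under 0.05; the 2 replicates that remain differ most in their floor, whose part in this was not tested. Averaged first over the cCREs of each promoter and then over 22 promoters with at least 10 cCREs, PE minus EP was −0.99, −1.05 and −0.77 in replicates 1, 2 and 3 (mean −0.94 ± 0.15, SD, n = 3). The exact two-sided sign-flip test gave p = 0.25, the smallest that 3 replicates allow. Of these promoters, 18 lay below 0, and 16 did so in all replicates.

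The difference followed how active the promoter was by itself. Promoters that reached an activity of 1 alone, in the strand used, lost most of it when a cCRE was put between them and the reporter. For those 18 oriented promoters (10 fragments), PE minus EP averaged −2.07, −2.18 and −1.70 over 1362 pairs in replicates 1, 2 and 3 (mean −1.99 ± 0.25), and the median pair was 3.81-fold lower in PE. Of these pairs 1199 (88.0%) were called lower and 2 higher. The other 24 oriented promoters averaged −0.16 ± 0.09 over 1213 pairs, with 25 called lower and 22 higher. Among these, 20 oriented promoters under an activity of 0.25 alone had a median log2 level of −2.77 alone, against −3.02 for the cCREs alone in the same pairs, and a median difference of −0.20. The other 4, between 0.25 and 1, had a median of −1.31 alone and −2.12 in EP, and their median difference was −0.07 over 251 pairs. These 4 were not alike. Sin3b (P025, plus strand) averaged −1.32 ± 0.54 over 37 pairs, below 0 in every replicate, with 2 called lower. On the minus strand, Fam32a averaged −0.22 ± 0.11 over 22 pairs, Zfp882 −0.004 ± 0.05 over 123 and Olfr374 0.40 ± 0.30 over 69. The part of the assay's floor in these values was not tested.

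**Figure D2:**
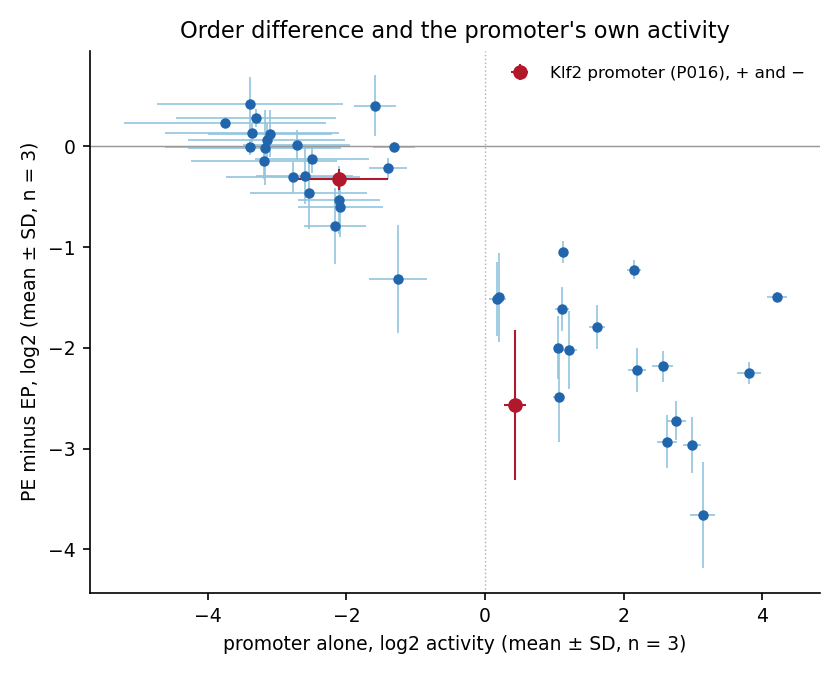
Each point is a promoter fragment in one strand with at least 10 cCREs (40 oriented promoters), with its log2 activity alone (x axis) and its mean PE minus EP over cCREs (y axis); bars are the SD of 3 replicates. Oriented promoters under an activity of 1 (log2 of 0) sit mostly between −0.8 and 0.4, those above it between −1.1 and −3.7, and the Klf2 promoter (red) has one strand in each range.

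Across the 40 oriented promoters, r between the order difference and the activity alone was −0.89 (Spearman's rho −0.87); the points share replicates and cCREs, and r describes them only. The level in EP followed the promoter alone closely, with r of 0.96 over the 2575 pairs, and the level in PE less closely, with 0.78. With the cCRE alone, r was 0.18 for EP and 0.39 for PE.  Promoter and strand took 90.2% of the sum of squares of log2 EP activity and cCRE and strand 3.74%, while in PE the promoter took 66.0% and the cCRE 19.7%. The rest was 3.48% in EP and 13.01% in PE. These are marginal shares of an additive fit on unbalanced pairs and do not add up to 100.

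The 4 promoters with the largest mean loss were those of Med26, Ap1m1, Zfp961 and Rab8a. Med26 (P021, chr8:72548195-72548645, mm10 as listed in the table) had an activity of 8.09, 8.53 and 7.20 alone on its plus strand in replicates 1, 2 and 3. With 76 pairs it averaged 6.21, 6.76 and 5.52 in EP and 0.732, 0.753 and 0.884 in PE (geometric means). All replicates of PE lay below all of EP. Over both strands the difference was −2.84 ± 0.23 with 60 cCREs, and 146 of 154 pairs were called lower. Ap1m1, a subunit of the AP-1 clathrin adaptor (P014, chr8:72239766-72240216), differed by −2.55 ± 0.21 with 42 cCREs, and 96 of 105 pairs were called lower. Zfp961, a zinc finger gene (P003, chr8:71950662-71951112), differed by −2.11 ± 0.28 with 38 cCREs. Its plus strand fell furthest of all oriented promoters: from 7.80, 8.82 and 6.66 in EP to 0.558, 0.515 and 0.792 in PE over 18 pairs, or 12.6-fold. Rab8a (P009, chr8:72160824-72161274) differed by −2.03 ± 0.41 with 63 cCREs, with 153 of 180 pairs called lower and 1 higher.

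**Figure D3:**
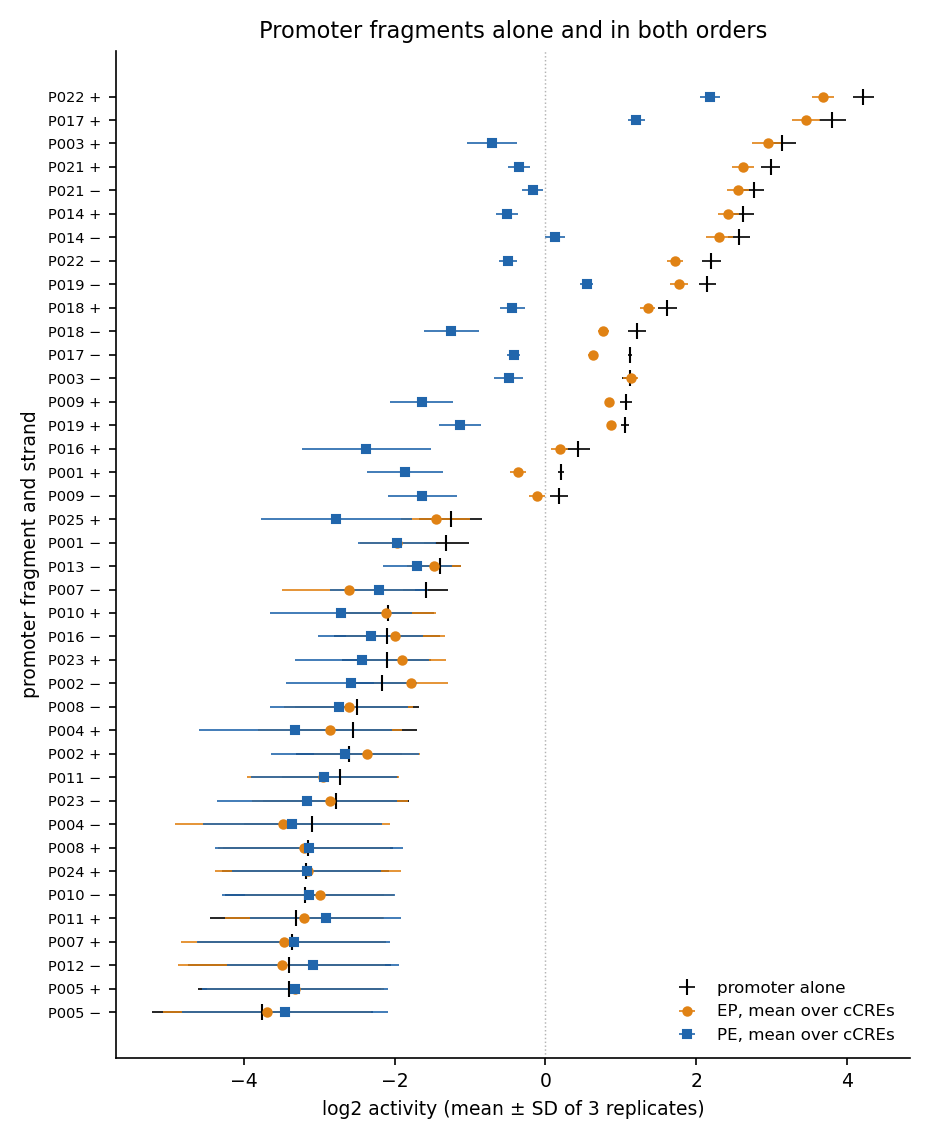
Log2 activity of each promoter fragment and strand alone (black), in EP (orange) and in PE (blue), with EP and PE averaged over cCREs; points are means and bars SDs of 3 replicates, ordered by the activity alone. Above an activity of 1 (log2 of 0) orange points lie nearer the black ones than the blue ones in all 18 cases; at lower activities all 3 lie closer together, with gaps such as that of P007 on the minus strand (−2.61 in EP and −1.59 alone).

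At the other end stood P005, between genes and nearest to Olfr372 (chr8:72040842-72041292), at 0.10 ± 0.06; Cib3, a calcium-binding protein gene (P011, chr8:72212762-72213212), at 0.14 ± 0.12; Olfr374 (P007, chr8:72106664-72107114), at 0.27 ± 0.20; and P012, between genes near Cib3 (chr8:72213561-72214011), at 0.33 ± 0.28. All 4 were above 0 in all replicates. Their levels were low in both orders. Cib3 on the plus strand had 0.0966, 0.0564 and 0.239 in EP and 0.125, 0.0684 and 0.273 in PE, against 0.0918, 0.0482 and 0.235 alone. In these 4 promoters 2 of 367 pairs were called lower and 5 higher.

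The promoter of Klf2 itself (P016, chr8:72318657-72319107) spans the annotated start of the gene. Its plus strand had an activity of 1.37, 1.20 and 1.49 alone in replicates 1, 2 and 3. Behind a cCRE it kept 1.10, 1.08 and 1.25 on average in EP, and before a cCRE it averaged 0.183, 0.110 and 0.357 in PE. The PE values lay near those of a cCRE alone and below every EP value. The difference was −2.56 ± 0.75 over 25 pairs, of which 22 were called lower and 0 higher. The minus strand read 0.236, 0.142 and 0.375 alone and differed by −0.33 ± 0.10 over 41 pairs, with 1 call in each direction. With cCRE E061 on its plus strand, the Klf2 promoter gave 2.48, 3.09 and 4.32 in EP and 0.0740, 0.0557 and 0.172 in PE, a log2 difference of −5.17 (adjusted p = 7.96e-04 by limma). With cCRE E008 PE was called lower on 1 cCRE strand and not on the other. On its plus strand there was no call, at 1.68, 1.49 and 1.66 in EP and 2.39, 1.59 and 2.60 in PE (0.42, adjusted p = 0.29). On its minus strand PE was called lower, at 0.705, 0.382 and 0.477 against 1.58, 1.99 and 1.55 in EP (−1.75, adjusted p = 0.00510). That the 2 strands differ from each other in this was not tested. The minus strand with E005 (plus strand) was the only Klf2 promoter pair called higher, at 0.997, 0.740 and 0.922 in PE and 0.290, 0.179 and 0.336 in EP (1.76, adjusted p = 0.00588). Without replicate 1 none of the pairs against EP passed by limma, these included, as stated above.

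Promoters were also described by gene group. The groups were set by hand from general knowledge of the genes, with no expression data, and with earlier results of these data known. The place of single genes, such as Tmem38a, was not checked. The groups are not exhaustive: Cherp, Sin3b and Tpm4, which are also widely expressed, stayed among the other promoters. The 9 promoters placed in the group of broadly expressed genes (Zfp882, Zfp961, Rab8a, Fam32a, Ap1m1, Eps15l1, Med26, Smim7 and Tmem38a) averaged −1.61 ± 0.21, with 890 of 1282 pairs called lower and 12 higher. The 4 of tissue-restricted genes (Cyp4f18, a cytochrome P450; Olfr374; Hsh2d, an adaptor of blood cells; Cib3) averaged −0.04 ± 0.04, with 3 of 480 called lower and 5 higher. The other 8 promoters averaged −0.60 ± 0.13, with 308 of 747 called lower and 6 higher. The median difference was −1.60, −0.14 and −0.85 in these groups, against −1.03 over all Klf2 pairs. Called lower were 69.4%, 0.625% and 41.2% of their pairs, against 47.5% over all Klf2 pairs. Called higher were 0.936%, 1.04% and 0.803%, against 0.932%. The groups differ in activity alone. All tissue-restricted promoters lay between −2.998 and −2.45 on the log2 scale, averaged over strands, and the broadly expressed ones between −2.43 and 3.09. Tmem38a, at the low end of its group, differed by −0.42 ± 0.25.

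Next, the pairs that differed most were read one by one. They were the pairs with the largest called differences in which no PE and EP values overlapped, at most 2 per promoter and 2 per cCRE. The largest loss was in Zfp961 (plus strand) with E098 (chr8:72677306-72677756, in Nwd1; minus strand). Its EP activity was 6.60, 6.02 and 5.49 in replicates 1, 2 and 3, and its PE activity 0.0930, 0.0193 and 0.232, or 80.7-fold lower (−6.33 ± 0.92, SE, adjusted p = 0.00295 by limma). These PE values lie at the level of E098 alone, which read 0.0806, 0.0335 and 0.2195. Eps15l1, an endocytic adaptor gene (P017, plus strand, a start shared with Gm46043), gave 12.04, 13.2 and 9.48 in EP and 0.303, 0.221 and 0.369 in PE with E003 on its plus strand (−5.30 ± 0.28, adjusted p = 0.00042). Med26 (minus strand) with E003 on the same strand gave 6.16, 6.50 and 6.02 in EP and 0.0445, 0.161 and 0.519 in PE (−5.33 ± 0.89). Ap1m1 (plus strand) fell 38.2-fold with E063 and 37.9-fold with E112, both on the plus strand.

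Gains were fewer and started from weak promoters. The largest was in P008 (minus strand; the fragment touches the window of Tpm4, a tropomyosin gene) with E041 (minus strand, chr8:72215053-72215503, between genes). It gave 1.10, 1.31 and 1.11 in PE and 0.0920, 0.0376 and 0.232 in EP, 12.6-fold higher (3.65 ± 0.67, adjusted p = 0.00719). Neither fragment did so alone: the promoter read 0.2005, 0.0950 and 0.291, and the cCRE 0.105, 0.0421 and 0.237. Cib3 (plus strand) with E097 (minus strand, in Nwd1) gave 4.20, 3.52 and 3.06 in PE and 0.769, 0.305 and 0.518 in EP, 7.20-fold higher; E097 alone read 1.31, 0.906 and 0.993. Cib3 with E057 rose 6.285-fold and Hsh2d with E020 6.004-fold, with all fragments on the plus strand, and Tmem38a (plus strand) with E061 (minus strand) 5.54-fold. Of the 24 pairs called higher, 22 had a promoter below 1 alone and 17 a cCRE at 0.25 or above alone. Among all 2575 matched pairs, 1213 had a promoter below 1 alone. Over the same 2575 pairs, whatever the promoter, the cCRE alone lay at a log2 level of −2 to −1 in 254 (8 called higher). It lay at −1 or above in 125 (9 called higher). The 24 pairs spread over 12 promoters and 15 cCREs, with 6 from Zfp882 and 3 each with E005, E007 and E057. Without replicate 1, 20 of the 22 differences named by rule in all comparisons no longer passed, and all kept their direction.

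By cCRE, PE was below EP on average for each of 66 cCREs with at least 3 promoters, from −2.44 to −0.01, and 64 of them did so in all replicates. The 4 lowest were E019 (chr8:71984525-71984975) at −2.44 ± 0.36, E010 (in Zfp961) at −1.90 ± 0.25, E037 (in Hsh2d) at −1.84 ± 0.68 and E075 (in 1700030K09Rik) at −1.79 ± 0.33. E019 and E037 rest on 7 and 5 pairs, of which 6 and 4 had a promoter at 1 or above alone, so the ranks are not free of the promoters paired. With such promoters only, E037 was at −2.11 ± 0.59, near the median of −2.06 over 66 cCREs. E015 (−2.81 ± 0.54) and E010 (−2.74 ± 0.35) then lay below E019 (−2.53 ± 0.23). The 4 highest were E006 (chr8:71900631-71901081) at −0.01 ± 0.09, E057 (chr8:72311070-72311520, between genes with Klf2 the nearest) at −0.10 ± 0.16, E008 (in Zfp617) at −0.27 ± 0.07 and E005 (chr8:71900277-71900727) at −0.36 ± 0.08. E005 and E006 overlap in the genome, as do E007 and E008, so their sequences are in part shared.

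A mean near 0 hid opposite differences. With active promoters, E006 gave 2.51, 2.72 and 2.53 in PE and 4.66, 5.14 and 4.20 in EP over 20 pairs, and PE minus EP was −0.85 ± 0.10. With weak promoters it gave 0.363, 0.2498 and 0.483 in PE and 0.223, 0.132 and 0.355 in EP over 24 pairs, a difference of 0.69 ± 0.24. In neither set did a PE value of a replicate cross its own EP value. E057 did likewise, at −1.20 ± 0.01 with active promoters and 0.73 ± 0.28 with weak ones, and E005 at −1.44 ± 0.18 and 0.65 ± 0.23. E008 differed least with active promoters of all 66 cCREs, at −0.49 ± 0.03, and by −0.09 ± 0.10 with weak ones. All 66 cCREs were below 0 with active promoters in every replicate (median −2.06). With weak promoters, 47 of 56 were below 0 and 9 above on average (median −0.21), 30 and 6 of them in every replicate. The difference was described in both sets and not tested between them.

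**Figure D4:**
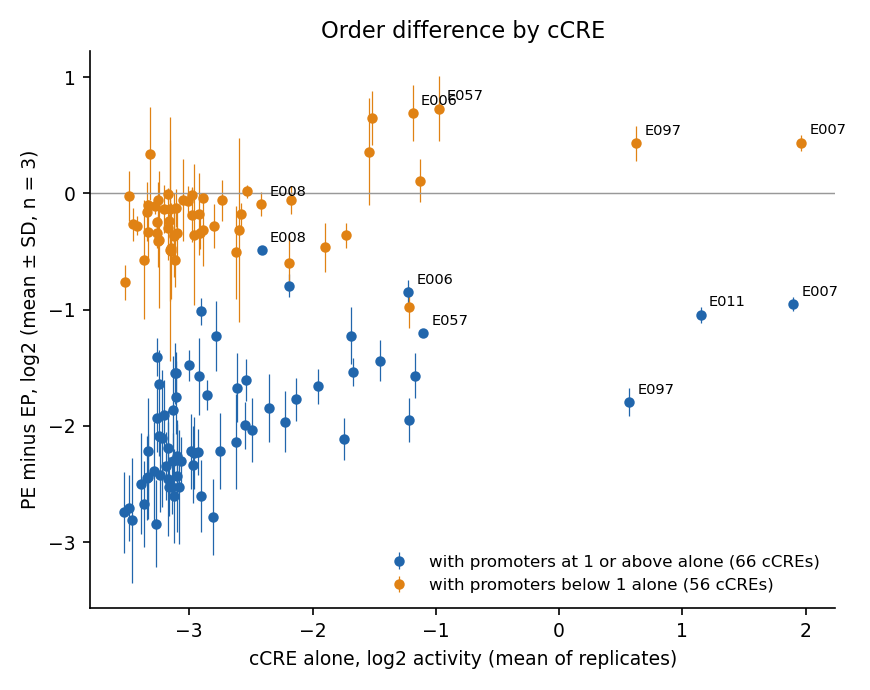
Each point is a cCRE with at least 3 promoters of the kind shown, with its log2 activity alone (x axis) and its mean PE minus EP (y axis; bars are the SD of 3 replicates), blue with promoters at 1 or above alone and orange with promoters below 1. All 66 blue points lie below 0. Of the 56 orange points 47 lie below 0, with a median over all of −0.21, and 9 above it, among them E006, E057, E007 and E097.

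The level of PE followed the cCRE as well. Over the 66 cCREs, r between mean log2 PE activity and the cCRE alone was 0.92, between mean log2 EP activity and the cCRE alone 0.80, and between the PE minus EP difference and the cCRE alone 0.52; cCREs were measured with different promoters, and these are descriptions. Over matched pairs with at least 3 promoters, the highest PE levels were those of E007, E011, E097 and E099. E007 (chr8:71922525-71922975), which holds the start of Zfp617, had 3.44, 4.10 and 3.15 in PE, 5.30, 5.91 and 4.82 in EP and 3.88, 3.96 and 3.497 alone. Its PE values thus lay around those of the cCRE alone and below EP. E097, in Nwd1, had 1.79, 1.71 and 1.66 in PE and 3.40, 3.03 and 2.83 in EP. E011 had 1.88, 2.00 and 1.65 in PE, with 3 promoters. E099 had 1.04, 1.05 and 1.07 in PE over 10 matched pairs with 6 promoters, and 0.207, 0.135 and 0.369 alone. Over all its 39 members, with 19 promoters, its PE level was lower, at 0.370, 0.299 and 0.613. Over all members the 4 highest were E011 at a mean log2 level of 1.11, E007 at 1.00, E097 at 0.84 and E088 at 0.63. Over matched pairs the lowest were E036, E112, E015 and E096, all within 0.105 to 0.357 in each replicate. Over all members they were E016 at −2.81 (7 constructs), E098 at −2.53, E015 at −2.52 and E112 at −2.47.

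Against the promoter alone, 1900 of 3987 members (47.7%) were called lower by limma and 134 (3.36%) higher; over the whole fit of 5437 pairs, 36% were lower and 7.25% higher. Each promoter alone is the baseline of many pairs, so its error is shared among them. With the replicate block, 2174 were called lower and 253 higher, and without replicate 1, 519 lower and 6 higher. The mean over 22 promoters was −1.14, −1.23 and −0.85 in replicates 1, 2 and 3 (mean −1.07 ± 0.20; exact sign-flip p = 0.25). With only pairs that had a side of at least 0.25, this mean was −0.69. Of the 2575 matched EP constructs, 364 (14.1%) were called lower and 92 (3.57%) higher, with a median of −0.29; over the whole fit 11.6% were lower and 6.83% higher. The same baselines enter both comparisons, and they are set side by side only.

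By promoter, Med26 differed from itself alone by −3.25 ± 0.26 with 228 of 236 PE constructs called lower, and Smim7, a small membrane protein gene, by −2.44 ± 0.15 with 222 of 227. The 3 largest gains over the promoter alone were in pairs with a cCRE that was active by itself. Cib3 (plus strand) with E011 (minus strand) gave 12.7, 12.02 and 11.1 in PE, against 0.0918, 0.0482 and 0.235 for the promoter alone and 1.67, 1.65 and 1.79 for the cCRE alone, so it lay above both. P012 (minus strand) with E007 (plus strand) gave 5.87, 4.68 and 3.70, below the 9.07, 9.31 and 7.57 of that cCRE strand alone. Cib3 with E097 gave the values named above. The 3 largest losses were Zfp961 with E098, 118-fold, and Med26 (plus strand) with E022, 64.2-fold, and with E016, 53.7-fold, each cCRE on the minus strand. By cCRE, 74 of 81 with at least 3 promoters lay below the promoter alone on average, down to −2.95, and 72 did so in all replicates. The 7 above it included E007 at 1.39 ± 0.52 over 22 promoters, E097 at 1.18 ± 0.36 and E011 at 0.72 ± 0.26; E006 and E057 differed from it by 0.11 ± 0.15 and 0.24 ± 0.31.

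Against the cCRE alone, the comparison asks whether a promoter in the far position still adds activity. By limma, 999 of 3930 members (25.4%) were called higher and 8 (0.204%) lower; over the whole fit of 5380 pairs, 20.3% were higher and 0.335% lower. With the replicate block, 1497 were higher and 75 lower. Without replicate 1 limma called 0, with 636 at an unadjusted p under 0.05. Averaged over promoters and then over 78 cCREs with at least 3 promoters, PE exceeded the cCRE alone by 1.05, 1.43 and 0.75 in replicates 1, 2 and 3 (mean 1.08 ± 0.34; exact sign-flip p = 0.25). With only pairs that had a side of at least 0.25, this mean was 2.18. By promoter, 13 of 22 exceeded the cCREs alone on average, 11 of them in all replicates, and 9 lay below them, 7 in all replicates. The lowest were P012 at −0.57 ± 0.34, Cyp4f18 at −0.56 ± 0.31 and P005 at −0.51 ± 0.34. At the other end, Smim7 exceeded the cCREs alone by 3.57 ± 0.93 with 179 of 225 called higher, Eps15l1 by 2.95 ± 0.90 with 231 of 288, and Ap1m1 by 2.62 ± 0.93 with 120 of 177. Klf2 exceeded them by 0.35 ± 0.12 with 2 of 143. Of the 3930 members tested against both single fragments, 890 (22.6%) were lower than the promoter alone and higher than the cCRE alone, 979 were lower than the promoter with no call against the cCRE, 20 were higher than both and 2 lower than both.

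The strand of the promoter mattered in PE for a few fragments. Strands are given as in the deposited table, which does not say whether plus means the genome's strand or the direction towards the reporter. Of 1531 pairs of PE constructs that differ in the promoter's strand alone, 259 (16.9%) were called higher on the plus strand and 117 (7.64%) on the minus strand by limma; over the whole fit the shares were 15.8% and 6.25%. Without replicate 1 the count was 0, with 312 at an unadjusted p under 0.05, and without replicate 2 it was 120 in all. Most calls came from 3 promoters. Smim7 (P022, a fragment that also overlaps the annotated Tmem38a gene) was higher on the plus strand in 102 of 106 pairs. So was Eps15l1 (P017) in 105 of 136, while Cherp, a calcium homeostasis gene (P019), was higher on the minus strand in 86 of 104. The largest was Smim7 with E093 (minus strand), at 11.4, 11.9 and 13.9 on the plus and 0.549, 0.661 and 0.746 on the minus strand (4.25, or 19.1-fold). With E083 (minus strand), Smim7 differed 15.7-fold. P005 with E089 (minus strand) differed 12.3-fold the other way, at 0.0669, 0.0212 and 0.222 on the plus and 0.661, 1.10 and 0.812 on the minus strand.

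The strand difference of a promoter was not the same in both orders. This comparison was added after earlier values had been seen. It used 982 sets of 4 constructs, with both strands in both orders, over 19 promoters. The median plus-minus difference was 0.18 in PE and 0.73 in EP, and its median size 0.65 and 1.00. In the fit of the difference of differences, 165 sets (16.8%) were called with a lower plus-minus difference in PE and 44 (4.48%) with a higher one, against 14.6% and 4.88% over the whole fit. With the replicate block, 272 and 57 were called. The difference is signed, so a lower value is not always a smaller strand effect. By size, 566 of the 982 sets (57.6%) had a smaller difference in PE. For Klf2, plus exceeded minus by 2.30 ± 0.59 in EP and by 0.10 ± 0.29 in PE over 22 sets, of which 5 were called lower and 0 higher. Over its matched pairs, PE averaged 0.183, 0.110 and 0.357 on the plus and 0.167, 0.140 and 0.347 on the minus strand. The cCREs alone had medians of 0.122, 0.0632 and 0.248, and the part of this floor in the small PE difference was not tested. From EP to PE, Zfp961 went from 1.78 ± 0.13 to −0.20 ± 0.17, Zfp882 from 1.59 ± 0.43 to 0.16 ± 0.03 and Rab8a from 0.97 ± 0.13 to 0.03 ± 0.03. Eps15l1 kept 1.65 ± 0.19 of 2.80 ± 0.17. In Smim7 the size grew, from 1.95 ± 0.03 in EP to 2.74 ± 0.25 in PE. In Cherp it also grew, from −0.94 ± 0.08 to −1.77 ± 0.37, and 19 of its sets are among the 165 called lower. Ap1m1 went from 0.08 ± 0.05 to −0.73 ± 0.16, with 14 sets called lower and 2 higher.

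**Figure D5:**
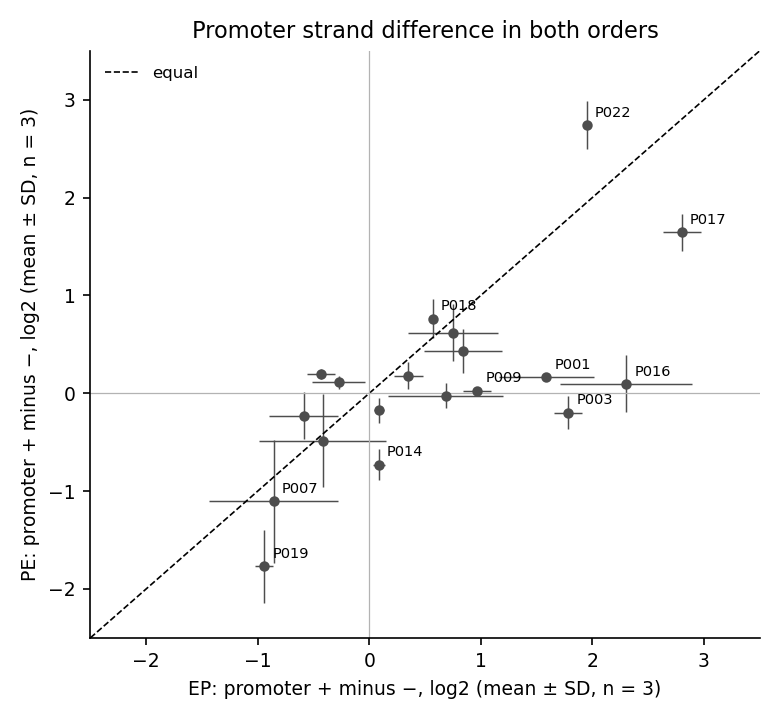
Mean plus-minus difference of log2 activity for 19 promoters in EP (x axis) and in PE (y axis) over the same cCREs; bars are the SD of 3 replicates and the dashed line marks equal differences. Klf2 (P016), Zfp961 (P003), Zfp882 (P001) and Rab8a (P009) lie near 0 on the y axis and between 0.97 and 2.30 on the x axis, while Smim7 (P022) lies above the line.

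The strand of the cCRE, the fragment next to the reporter, gave fewer calls. Of 1588 pairs, 114 (7.18%) were higher on the plus and 70 (4.41%) on the minus strand by limma, against 5.88% and 3.87% over the whole fit, and the median difference was 0.02. The count of 184 calls rose to 379 with only pairs that had a side of at least 0.25, and to 423 with a variance prior that follows activity. Leaving out any replicate left 0 calls, while 150, 241 and 399 pairs had an unadjusted p under 0.05 in the fits that lacked replicates 1, 2 and 3. E007 was higher on the plus strand in 11 of 11 pairs, with a median difference of 2.12 (Zfp617 lies on the plus strand of the genome). E095 was higher on the minus strand in 13 of 38. The largest difference was in Eps15l1 (plus strand) with E003, at 0.303, 0.221 and 0.369 with the cCRE on the plus and 8.57, 10.6 and 7.003 on the minus strand, 29.5-fold. Rab8a (plus strand) with E074 differed 19.8-fold towards plus and Ap1m1 (plus strand) with E095 18.99-fold towards minus. The Eps15l1 promoter alone on that strand read 15.01, 15.01 and 12.2.

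The Nanog library, transfected in the same mix, was the other set of PE constructs with both orders. Its mean over 9 promoters was 0.41, 0.33 and 0.27 in replicates 1, 2 and 3 (mean 0.34 ± 0.07), so PE lay above EP there and below it in the Klf2 library in every replicate. The difference between the libraries was −1.27 ± 0.20 (exact sign-flip p = 0.25, the smallest possible). Of 647 Nanog pairs, 31 were called lower and 80 higher. No matched Nanog promoter reached an activity of 1 alone in either strand. Among promoters below 1 alone, PE minus EP averaged −0.16 ± 0.09 over 1213 Klf2 pairs and 0.20 ± 0.04 over 647 Nanog pairs.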

How the data were processed

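The samples used are the 3 cDNA replicates of the mix of Klf2, Nanog and negative control libraries. The authors' deposited table gives for each construct an activity per replicate, a linear ratio of cDNA to plasmid barcodes, with the same for each fragment alone; how barcodes were counted, filtered and scaled is not given in the sources used here. Bowtie2 (no version) and mm10 are named in the submitters' processing notes. Of the activity columns, 3 were given to no sample (values over all replicates) and were not used. Depth per construct is unknown.

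Log2 activities were compared with limma 3.58.1 in R 4.3.3, 3 values against 3, over all Klf2 and Nanog constructs of a comparison, with moderated variances and Benjamini-Hochberg adjustment at 0.05; any construct at 0 in a replicate was dropped. The fit was also run on simulated pairs with independent noise in every value. Shifts shared by a replicate were not simulated, so that run cannot speak to them. Fits had no replicate block. Both sides of a comparison come from the same transfection, and the deviations of same-numbered PE and EP values correlated with r of 0.00, 0.52 and 0.64 in replicates 1, 2 and 3; the fit with the replicate block is given where it changes a count by over 1.5 times in a direction. Errors with ± are SDs of 3 replicate means, or SEs of limma for single pairs. Means needed 10 cCREs per promoter or 3 promoters per cCRE. The named pairs are the 5 highest and 5 lowest against EP, 3 and 3 against the promoter alone and 3 per strand comparison; named promoters and cCREs are the 4 highest and 4 lowest. Promoter strand was planned by direction of transcription, but the table does not say what its strands refer to, so they are used as listed. Members, lists and the limit of 1 for an active promoter were chosen with earlier results of these data known. Sequences and names are from RefSeq (GRCm38.p6). Scripts ran in Python 3.11.15 with pandas 2.3.3, numpy 2.4.6 and matplotlib 3.10.9.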

Additional observations from a re-analysis of the deposited data

Results flagged for a closer look

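The order difference had opposite signs in the 2 libraries of the mix. Averaged over promoters, PE minus EP was −0.94 in the Klf2 library and 0.34 in the Nanog library, with the same sign as the mean in all 3 replicates of each. PE minus the promoter alone was −1.07 and 0.70, again with one sign in all replicates of a library. The exact sign-flip test of the difference between libraries could not go below p = 0.25. Matched Nanog promoters were all below an activity of 1 alone, and the part of promoter strength in the difference was not tested beyond the values given for promoters below 1.

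The promoter's strand difference depended on the order by a test of the difference itself: 165 sets were called with a lower plus-minus difference in PE and 44 with a higher one. Smim7 alone gave 26 of the higher calls and Eps15l1 63 of the lower ones. The difference is signed, and the lower calls include 19 sets of Cherp, whose strand difference was larger in PE.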

How the results depend on the processing

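Replicate floors differ at low activity, constructs near the floor give no order, and depth per construct is unknown. Without single replicates, the calls against EP ranged from 0 to 1193, against the promoter alone from 525 to 2049, against the cCRE alone from 0 to 1144, for the promoter strand from 0 to 299 and for the cCRE strand from 0 to 0; the promoter share of the PE sum of squares ranged from 63.4% to 66.0% and the cCRE share from 18.8% to 20.2%. With the replicate block (same transfection), 1373 pairs were called against EP, 2427 against the promoter alone, 1572 against the cCRE alone, 441 for the promoter strand, 234 for the cCRE strand and 329 sets for strand by order. With only pairs of at least 0.25 on 1 side, the mean over promoters was −0.69 against the promoter alone and the mean over cCREs 2.18 against the cCRE alone, and 379 pairs were called for the cCRE strand. A variance prior that follows activity, added after seeing the data, called 423 for the cCRE strand. With at least 20 partners per fragment the shares were 72.6% and 15.8%. With the whole insert inverted, 1429 of 3052 pairs were called against EP, 170 of them higher. No mean changed sign; the cause of these moves was not tested. Of the 22 differences of pairs named by rule, 22 kept their call with the block, the pseudocount of 0.01, the limit of 0.25 and the Klf2 library alone; without replicates 2 and 3, 17 and 19 did. The limit of 0.25 moved 5 of 9 named promoters and 5 of 8 named cCREs by more than 1 SD.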

Other observations

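The order difference did not follow the genomic distance between the fragments: over the matched pairs, r with log10 of the distance listed in the deposited table was 0.03 (Spearman's rho 0.06), given as a description over pairs that share fragments. The promoter fragment of F2rl3 (P026) had 3 members and no matched pair in the reverse order, and it was left out of every mean over promoters.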
